A study of Caenorhabditis elegans with 22 samples.

Results

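Rotenone-exposed and solvent-control animals of Caenorhabditis elegans were compared at day 10 of adulthood, over all genes of the deposited count table. The comparison used 6 of the 22 libraries of the series, the 3 that the labels give as rotenone at day 10 and the 3 given as DMSO at day 10. Whole animals were kept on nematode agar that contained either 100 nM rotenone or its solvent, dimethyl sulfoxide (DMSO), alone, and were collected 10 days after L4, the last larval stage. All 6 libraries therefore share the plate medium and the age, and differ by label in rotenone. The strain and genotype of the animals are not stated in the sources used here. Day 1, 5 and 20 libraries of the same series, which have DMSO controls of their own, entered the same model. They were 6 at day 1, 6 at day 5 and 4 at day 20.

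Rotenone blocks complex I of the mitochondrial respiratory chain, the enzyme that passes electrons from NADH to ubiquinone. In C. elegans, defects of the respiratory chain are known to engage the mitochondrial unfolded protein response, detoxification enzymes and innate immune genes, the last of them in part through the p38 kinase PMK-1. Adult hermaphrodites carry a germline and, while fertile, developing embryos, so messenger RNA from whole animals is a mixture of somatic, germline and embryonic transcripts.

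The day 10 libraries held 27105806, 60042374 and 50105243 counts for DMSO replicates 1, 2 and 3, and 51652181, 56912901 and 69961601 for the rotenone replicates. DMSO replicate 1 stood apart from the other libraries of its group. On the first principal component of the 6 libraries, which held 55.6% of the variance, it lay at -67, the other DMSO libraries lay at 30 and 29.8, and the rotenone libraries lay between -14.1 and 11.2. The standard deviation of its log2 ratios to its own group was 0.752, against 0.474 and 0.481 for the other DMSO libraries and 0.304 to 0.362 for rotenone. Its ribosomal RNA share was 2.54%, within the range of the rotenone libraries (1.75% to 2.72%) and above DMSO replicates 2 and 3 (0.807% and 1.43%), and its share of mitochondrial transcripts was the highest of the 6 at 0.89%. The counts of most gene lists below are therefore given with all libraries and without DMSO replicate 1; the levels and fold changes of single genes are from all libraries unless stated.

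The departure of DMSO replicate 1 followed transcript length. Across 16550 genes its log2 ratio to the other DMSO libraries had a Spearman correlation of -0.558 with exonic length. Its median log2 ratio was 0.55 in the shortest 10% of genes, whose median length was 423 bases, and -0.71 in the longest 10%, at 3925 bases. Rotenone replicate 1 showed a smaller tilt against the other rotenone libraries, from 0.11 to -0.20. With all libraries the rotenone effect had a correlation of -0.0517 with length, and without DMSO replicate 1 of -0.385, with a median of 0.22 in the shortest 10% and -0.27 in the longest. For many of the lists, counts without that library are therefore also given with the length trend removed from every library.

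**Figure D1:**
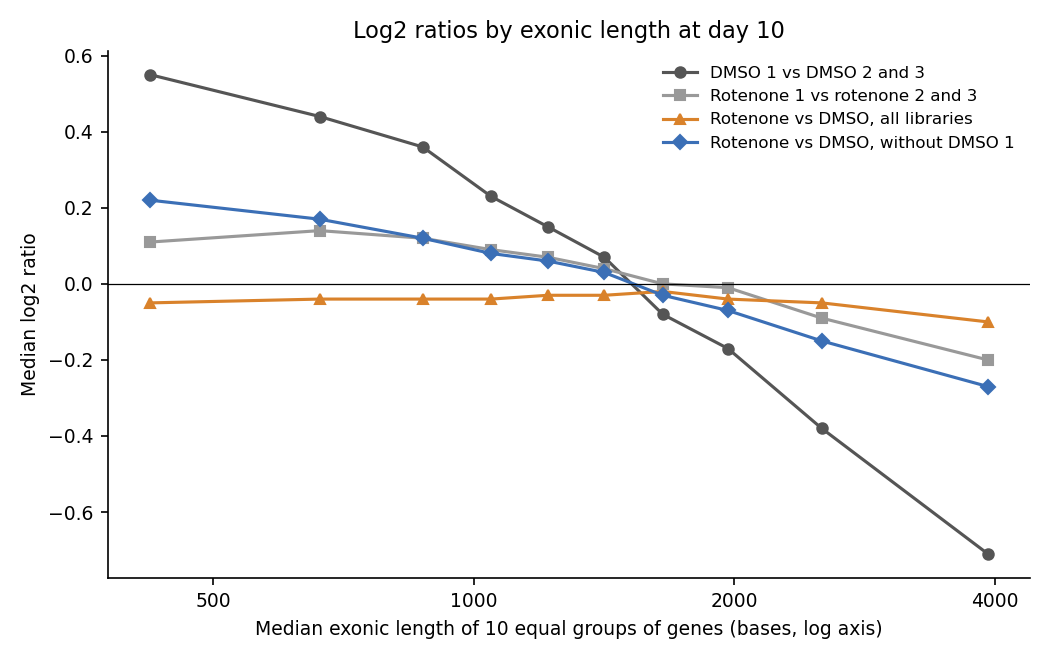
The vertical axis is the median log2 ratio in each of 10 equal groups of the tested genes and the horizontal axis their median exonic length in bases, on a log axis, at day 10. DMSO replicate 1 against the other DMSO libraries (dark circles) falls from 0.55 to -0.71, rotenone against DMSO is near level with all libraries (triangles), and it falls from 0.22 to -0.27 without DMSO replicate 1 (diamonds).

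Of 16822 genes tested, 229 (1.36%) differed between rotenone and DMSO at an adjusted p under 0.05, 76 of them higher with rotenone (0.452%) and 153 lower (0.91%). The changes were small. The median size was 0.65 on the log2 scale for the genes that rose and 0.61 for those that fell, and 11 and 7 of them changed by more than 1. The 3 rotenone libraries lay outside the range of the 3 DMSO libraries for 75 of the 76 genes that rose and for 149 of the 153 that fell. Over all tested genes, 693 (4.12%) had no overlap with rotenone higher and 1255 (7.46%) with rotenone lower. The median log2 fold change of all tested genes was -0.05.

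The same test without DMSO replicate 1 called 2396 of 16782 genes (14.3%), 1061 higher (6.32%) and 1335 lower (7.95%). Of the 229 genes, 227 were called again, all but D1022.4 and R11G1.7. The larger count goes with a smaller estimate of the spread, which all groups share: the common biological coefficient of variation was 0.135 with all 22 libraries and 0.0911 without this library. The count at day 1, a comparison that does not use the library, went from 109 genes (0.648%) to 3082 (18.4%). Genes called higher without it had a median exonic length of 901 bases and those called lower 2502.5 bases, against 1308.5 for all tested genes. With the length trend removed and DMSO replicate 1 left out, 1498 of 16510 genes were called, 797 higher and 701 lower. List counts below without DMSO replicate 1 have 6.32% higher and 7.95% lower as their background. Those with the length trend removed as well have 797 and 701 of 16510.

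The count of 229 also depended on other libraries. Leaving out DMSO replicate 2 gave 135 genes and DMSO replicate 3 gave 102, while leaving out rotenone replicate 1 gave 47, rotenone replicate 2 gave 213 and rotenone replicate 3 gave 56. A fit of the 6 day 10 libraries alone with edgeR called 0 genes, with 853 of 14739 at an unadjusted p under 0.05. On all libraries DESeq2 called 405 genes and limma-voom with library weights 2235. There were 34 genes that were called with all libraries, with any single day 10 library left out, and with the replicate number as a block (286 genes in that fit, 1.7%, of which 94 or 0.559% higher and 192 or 1.14% lower), 19 of them higher and 15 lower. The higher ones were dbd-13, cyp-33C1, col-183, F01D5.1, F46F2.3, C52D10.1, irg-5, irg-4, dod-24, C17H12.6, lys-2, drd-5, hmit-1.1, acp-6, dhs-2, F55G11.8, clec-265, irg-8 and nspg-9. The lower ones were ced-11, ZK430.5, sdz-28, cec-8, B0281.5, skr-7, R04A9.7, F32H2.6, fbxc-25, tbx-11, mls-2, btb-10, btb-8, Y46G5A.28 and fbxb-63.

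**Figure D2:**
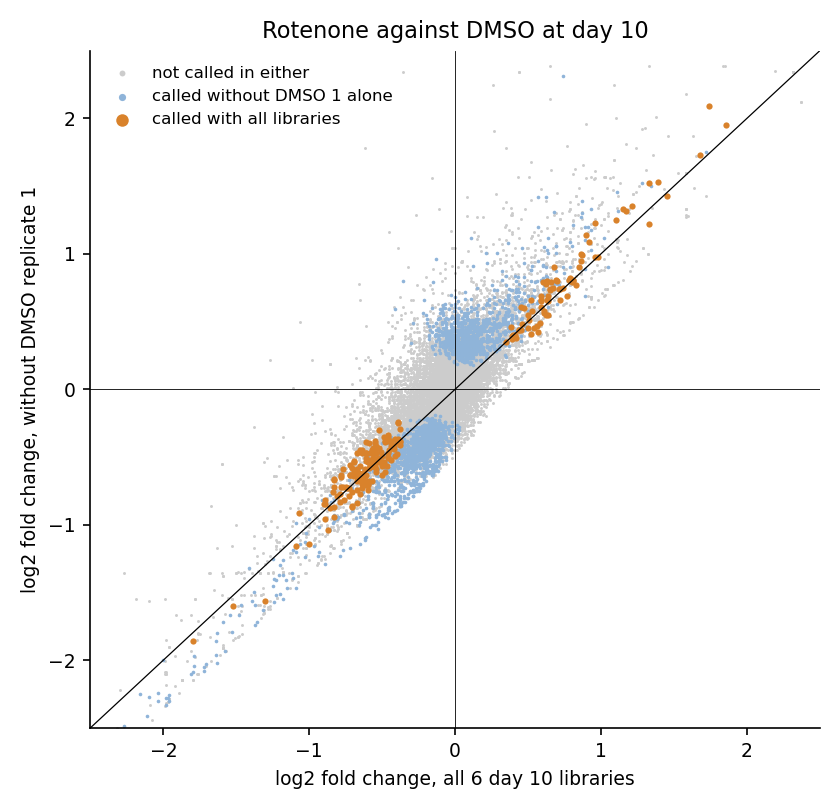
Each point is a gene, with its log2 fold change (rotenone against DMSO) from all 6 day 10 libraries on the horizontal axis and without DMSO replicate 1 on the vertical axis; both axes run from -2.5 to 2.5, which leaves 61 of 16782 genes outside. The genes called with all libraries (orange) lie along the diagonal in both directions, and the genes called without DMSO replicate 1 alone (blue) lie mostly off it, closer to 0 on the horizontal axis.

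Genes of the response to bacterial infection rose with rotenone. In a list of 16 such genes, many of them known targets of the p38 pathway, 11 rose (0.452% of all tested genes did) and none fell, and all 16 had a fold change above 0. The list was chosen after the values of these genes had been seen, so its count describes the genes and is no independent evidence of their direction. Its median log2 fold change was 0.66, against -0.05 for all tested genes, and 0.75 without DMSO replicate 1, when 12 of the 16 were called higher, against 6.32% of all genes; with the length trend removed as well, 13 were. From RNA of whole animals, a change in RNA per cell and a change in the number of cells that carry it cannot be told apart, here and below.

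The infection response gene irg-5 (V:13737010-13738474, WBcel235) stood at 33.3, 37.7 and 31.4 CPM (counts scaled to library size) in DMSO replicates 1 to 3 and at 65.5, 48.5 and 65 in rotenone. All rotenone libraries lay above all DMSO libraries, and the log2 fold change was 0.81 ± 0.10 (SE, n = 3 per group, adjusted p = 0.0012). It was also 0.81 without DMSO replicate 1. The infection response gene irg-4 (IV:12435833-12438236) stood at 28.6, 31.5 and 29.8 CPM in DMSO and at 53.3, 47.4 and 55.4 CPM in rotenone, a log2 fold change of 0.80 ± 0.12 (adjusted p = 0.0027). The groups did not overlap, DMSO replicate 1 was the lowest control, and the log2 fold change without it was 0.79. The third gene of this naming family that rose, irg-8, stood at 21.1, 19.4 and 18.8 CPM in DMSO against 34, 26.9 and 28.6 in rotenone (0.59 ± 0.09, adjusted p = 0.0024), and its log2 fold change without DMSO replicate 1 was 0.66.

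Secreted antimicrobial proteins were among the genes that rose. The lysozyme gene lys-2 (V:10280307-10281474), whose product breaks bacterial cell walls, stood at 50.3, 46.6 and 43.3 CPM in DMSO and at 73.4, 64.7 and 85 in rotenone (0.67 ± 0.11, adjusted p = 0.0033). It was the 1 lysozyme of 13 tested that passed. Without DMSO replicate 1, 6 of the 13 passed, all higher (6.32% of all genes). Among them were lys-1 (0.47, adjusted p = 0.0077) and lys-8 (0.35, adjusted p = 0.009). With the length trend removed as well, 4 were higher and 1 lower. The gene sysm-1 (II:9082626-9083193), widely used as a reporter of p38 activity, stood at 31.5, 19.2 and 21.2 CPM in DMSO and at 51.2, 39.7 and 49 in rotenone. The groups did not overlap, DMSO replicate 1 was the highest control, and the log2 fold change was 0.96 ± 0.19 (adjusted p = 0.013) with all libraries and 1.23 without DMSO replicate 1. The highest adjusted p for sysm-1 on leaving out a single library was 0.078.

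The wider list of other immune effectors shares sysm-1, irg-4, irg-5 and hpo-6 with the list above. Of its 79 tested members 6 rose (0.452% of all tested genes did) and none fell. The other members that rose were irg-8 and spp-17, a saposin-like protein gene (0.53 ± 0.12, adjusted p = 0.028). The list's median was 0.13 with all libraries and 0.37 without DMSO replicate 1, when 21 members were called higher (6.32% of all genes). With the length trend removed as well, 13 were. C-type lectin genes, which encode carbohydrate-binding proteins, moved both ways. Of 152 tested, clec-1, clec-3, clec-47, clec-85, clec-186 and clec-265 rose and clec-266 fell, and the median of -0.03 lay beside that of all genes. Without DMSO replicate 1, and also with the length trend removed as well, 13 lectin genes were higher and 4 lower. Over all genes 6.32% were higher and 7.95% lower without that library, and 797 and 701 of 16510 with the trend removed. The most abundant of these, clec-266, stood at 434, 367 and 378 CPM in DMSO and at 281, 291 and 273 in rotenone (-0.48 ± 0.11, adjusted p = 0.032), a clear separation in the direction opposite to the other lectins called.

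None of the genes of the p38 pathway itself was called higher, with or without DMSO replicate 1. In a list of 5 chosen after the values were seen (tir-1, nsy-1, sek-1, pmk-1 and the transcription factor gene atf-7), none passed with all libraries, and tir-1, nsy-1 and pmk-1 were lower without DMSO replicate 1. The adaptor gene tir-1 stood at 53.5, 72.4 and 74.8 CPM in DMSO and at 54.7, 53.7 and 48.3 in rotenone (-0.36 ± 0.10, adjusted p = 0.11; -0.47, adjusted p = 0.0011 without DMSO replicate 1). With the length trend also removed, 1 of the 5 was called higher and 1 lower.

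The dod genes are named for acting downstream of DAF-16, the transcription factor of insulin signalling. The name alone does not say whether DAF-16 raises or lowers a gene, and DAF-16 activity was not tested. Of 9 tested, 4 rose (0.452% of all tested genes did): dod-17, dod-19, dod-22 and dod-24. With the replicate number as a block 3 of the 9 were called higher. In that fit dod-19 (adjusted p = 0.066) and dod-22 (adjusted p = 0.055) were not called. The gene dod-24 stood at 7.12, 6.71 and 7.18 CPM in DMSO and at 13.1, 12.6 and 10.3 in rotenone (0.78 ± 0.12, adjusted p = 0.0024). The DMSO libraries were nearly equal and the lowest rotenone library exceeded them all. The list's median was 0.37, and 0.64 without DMSO replicate 1, with 6 members called higher (6.32% of all genes). With the length trend removed as well there were also 6. The gene dod-23 was not called (-0.09 ± 0.11, adjusted p = 0.90). In a list of genes known to be raised by DAF-16, 1 of 12 rose, the desaturase gene fat-5, and 4 did without DMSO replicate 1.

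The genes that rose included neighbours on chromosome IV, where 25 of the 76 lay (0.903% of the 2768 genes tested there, against 0.452% of all). In the 67.7 kb from K08D8.5 to dod-17 (IV:12910647-12978343), 7 of the 15 protein-coding genes tested rose and none fell. This interval was marked out after the calls were seen, so that its ends are called genes by construction. The genes that rose there were K08D8.5, dod-24, F55G11.8, dod-22, F55G11.2, mbug-1 and dod-17. The most abundant, mbug-1, stood at 42.5, 38 and 35.1 CPM in DMSO and at 65.6, 54.8 and 67.7 in rotenone (0.70 ± 0.14, adjusted p = 0.013). Between them, irg-6 stood at 14.7, 19.3 and 20.5 CPM in DMSO and at 21.3, 21.8 and 21.8 in rotenone (0.25 ± 0.13, adjusted p = 0.50), and was not called with or without DMSO replicate 1. Elsewhere on the chromosome, the adjoining genes C17H12.8 (0.65 ± 0.13, adjusted p = 0.014) and C17H12.6 (0.77 ± 0.12, adjusted p = 0.0024) rose together. Adjoining family members can share reads, and how the authors' counting treated such reads is not stated.

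**Figure D3:**
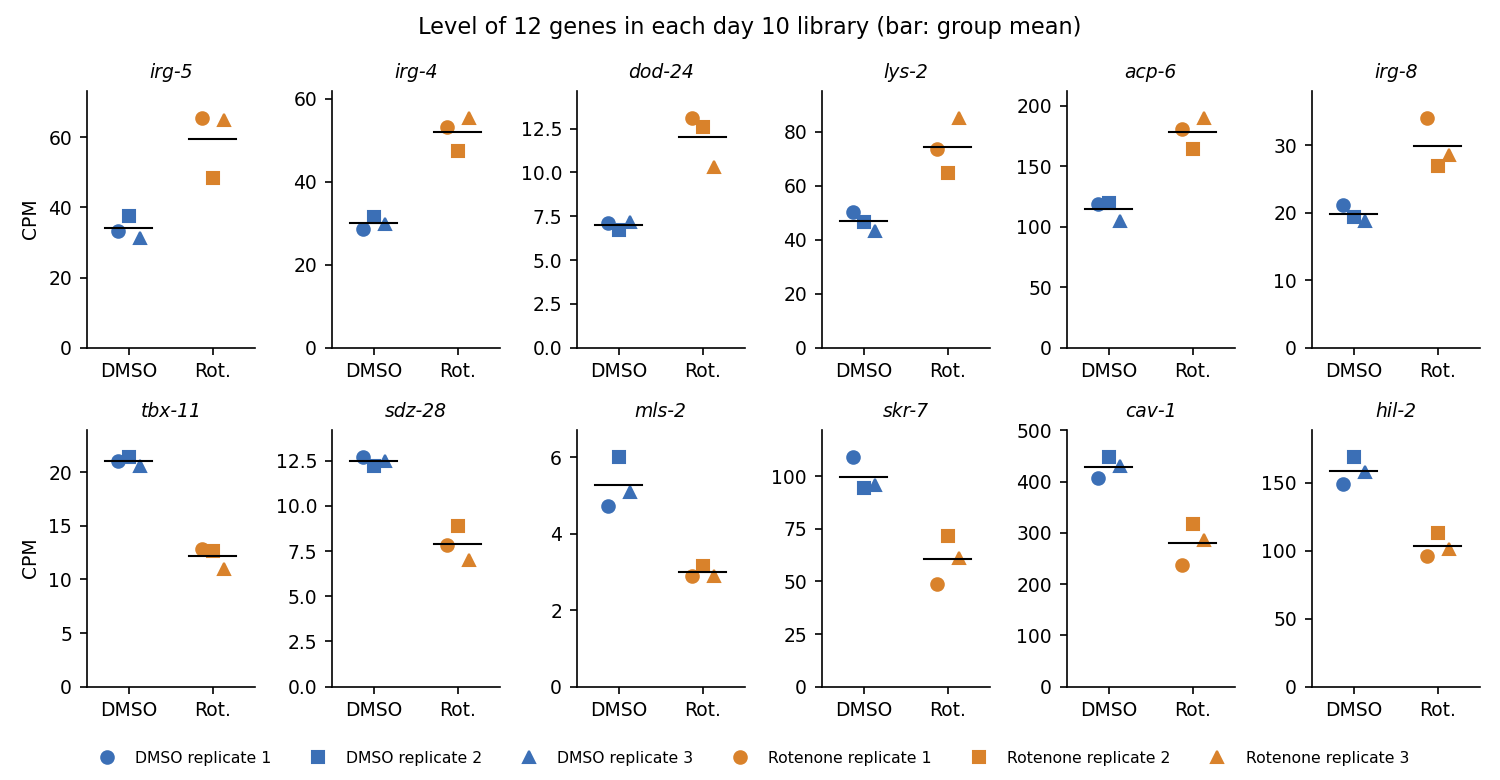
Each panel gives 1 gene, with its level in CPM on the vertical axis (starting at 0) for the 3 DMSO libraries (blue) and the 3 rotenone libraries (orange); marker shape gives the replicate number and the bar the group mean. In all 12 genes the groups do not overlap: irg-5, irg-4, dod-24, lys-2, acp-6 and irg-8 are higher with rotenone, and tbx-11, sdz-28, mls-2, skr-7, cav-1 and hil-2 are lower.

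Detoxification genes were represented among the genes that rose by cytochrome P450 enzymes, which oxidise foreign and endogenous compounds. Of 74 tested, 4 rose (background 0.452%) and none fell: cyp-33C1, cyp-33B1, cyp-35B1 and cyp-35A5. The largest change was that of cyp-33C1, at 1.35, 1.29 and 0.747 CPM in DMSO against 2.86, 2.53 and 3.41 in rotenone (1.39 ± 0.19, adjusted p = 0.0017). The most abundant was cyp-35B1, at 71.8, 60.6 and 55.1 CPM against 109, 79.8 and 107 (0.66 ± 0.15, adjusted p = 0.032), where rotenone replicate 2 lay nearest to the controls. The median of the family was 0.18, and 13 members were called higher without DMSO replicate 1 (background 6.32%), 15 with the length trend also removed. The P450 gene cyp-14A4 was near 0 in all libraries (0.132 to 0.395 CPM) and not called (0.35 ± 0.38, adjusted p = 0.88).

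Other detoxification families gave few or no calls. None of 48 glutathione S-transferase genes passed with all libraries; gst-4, a common reporter of oxidative stress, stood at 7.12, 6.24 and 6.72 CPM in DMSO and at 7.02, 8.61 and 9.19 in rotenone (0.31 ± 0.14, adjusted p = 0.43). Without DMSO replicate 1, 7 were called higher and 1 lower (6.32% and 7.95% of all genes). With the length trend removed as well there were 2 and 2. Of 66 UDP-glucuronosyltransferase genes 1 fell, ugt-45 (-0.42 ± 0.08, adjusted p = 0.013). Without DMSO replicate 1 there were 4 higher and 1 lower (6.32% and 7.95% of all genes). With the length trend removed as well there were 7 and 1. Among 12 metal-handling genes, cdr-2, of the cadmium-responsive family, rose from 13.1, 10.9 and 10.3 CPM to 19, 16 and 20 (0.69 ± 0.13, adjusted p = 0.0081). Of these 12 genes 5 were called higher without DMSO replicate 1, among them cdr-4, ftn-1 and mtl-1, and 1 lower; with the length trend removed as well, 4 were higher and none lower.

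A few genes of the cuticle and its epidermis were called. Of 156 cuticle collagen genes tested, col-183, col-101 and col-181 rose and col-135 fell, against 0.452% of all genes higher and 0.91% lower. The gene col-183 (X:13466643-13467764) stood at 5.64, 4.4 and 4.5 CPM in DMSO and at 11.8, 9.05 and 12.6 in rotenone (1.21 ± 0.14, adjusted p = 0.0012), and the lowest rotenone library lay well above the highest control. The collagens' median was 0.14 with all libraries and 0.29 without DMSO replicate 1, when 19 were called higher and 2 lower (6.32% and 7.95% of all genes), and 17 and 1 with the length trend removed as well. Of 49 hedgehog-related genes, which encode secreted proteins of the epidermis and other tissues, grd-4, grd-5 and grl-4 rose and none fell; without DMSO replicate 1, 7 were higher, and 4 with the length trend removed as well. The gene grd-5 stood at 4.19, 3.26 and 3.22 CPM in DMSO and at 7.47, 5.65 and 6.12 in rotenone (0.86 ± 0.17, adjusted p = 0.013). The 6 epidermal markers summed to 46.4 to 60.2 CPM in DMSO, with the highest value in replicate 1, and to 54.9 to 70.7 in rotenone, none of them called with all libraries; their part in the collagen result was not tested.

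Some enzyme genes of lysosomes and of metabolism also rose. The acid phosphatase gene acp-6 (IV:6424600-6426139) was the most abundant of the 19 genes that rose in every such fit, at 119, 120 and 105 CPM in DMSO and 181, 164 and 190 in rotenone (0.64 ± 0.08, adjusted p = 0.0012; 0.69 without DMSO replicate 1). The acid phosphatase gene pho-11 rose less, from 67.9, 83.5 and 70.6 CPM to 113, 86.4 and 98.6 (0.42 ± 0.09, adjusted p = 0.023). With the replicate number as a block pho-11 was not called (adjusted p = 0.057), while acp-6 was. Both kept the groups apart, pho-11 only narrowly between DMSO replicate 2 and rotenone replicate 2. Among 24 cathepsin-type protease genes the aspartyl protease genes asp-13 (0.35 ± 0.08, adjusted p = 0.032) and asp-8 (1.33 ± 0.30, adjusted p = 0.031) rose, against 0.452% of all tested genes. With the replicate number as a block, asp-8 was not called (adjusted p = 0.072). Without DMSO replicate 1 there were 5 higher and 2 lower (6.32% and 7.95% of all genes). The gene pck-1, for phosphoenolpyruvate carboxykinase of gluconeogenesis, stood at 59.4, 84.1 and 70.9 CPM in DMSO and at 99.5, 110 and 126 in rotenone (0.64 ± 0.13, adjusted p = 0.013), the 1 call among 21 genes of glycolysis and gluconeogenesis. Its log2 fold change was 0.55 without DMSO replicate 1, when 1 of the 21 was higher and 1 lower. Further calls were the asparagine synthetase gene asns-2 (0.57 ± 0.13, adjusted p = 0.039), the desaturase gene fat-5 (0.47 ± 0.11, adjusted p = 0.04), the inositol transporter gene hmit-1.1 (0.64 ± 0.11, adjusted p = 0.0049) and the short-chain dehydrogenase gene dhs-2 (0.63 ± 0.11, adjusted p = 0.0063). Of 30 short-chain dehydrogenase genes dhs-2 was the 1 that rose and dhs-8 the 1 that fell (-0.81 ± 0.16, adjusted p = 0.013); without DMSO replicate 1, 4 were higher and 2 lower.

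The intestine is the main site of several of these enzymes. The 7 intestinal markers tested summed to 718 to 756 CPM in DMSO and to 841 to 893 CPM in rotenone, without overlap and with no marker called with all libraries. None of the 7 was at 0. A separate list of 15 intestinal identity genes did overlap, with sums of 412, 651 and 632 CPM in DMSO and of 525, 575 and 601 in rotenone. Its median log2 fold change was 0.10, and -0.04 without DMSO replicate 1, when 2 of the 15 were lower and none was called with all libraries. The part of this difference in the genes that rose was not tested.

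Among the genes that fell, transcripts first made in the embryo formed 1 group. Of 38 embryonic zygotic genes tested, 8 fell (background 0.91%) and none rose: tbx-37, tbx-38, sdz-4, sdz-9, sdz-14, sdz-18, sdz-28 and sdz-30. The sdz genes are zygotic genes that depend on SKN-1, the factor that specifies early blastomeres. The list's median log2 fold change was -0.44, with 33 of 38 below 0, against -0.05 for all tested genes. Without DMSO replicate 1 the median was -0.30, with 11 lower and 1 higher (7.95% and 6.32% of all genes), and with the length trend removed as well 11 were lower and none higher.

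The gene sdz-28 (II:2131070-2132475) stood at 12.7, 12.2 and 12.5 CPM in DMSO and at 7.83, 8.9 and 6.99 CPM in rotenone, a log2 fold change of -0.66 ± 0.10 (adjusted p = 0.0019). The DMSO libraries were nearly equal, replicate 1 included. The T-box gene tbx-38 (III:11784082-11786061), which acts with tbx-37 in the descendants of an anterior blastomere, stood at 7.19, 9 and 7.8 CPM in DMSO and at 4.68, 5.15 and 4.13 in rotenone (-0.79 ± 0.13, adjusted p = 0.0049). Its partner tbx-37 (III:11224808-11227125) stood at 3.03, 4.36 and 4.01 CPM against 1.97, 2.59 and 1.9 (-0.83 ± 0.16, adjusted p = 0.013). Not all early genes followed: the endoderm gene end-3 stood at 2.11, 1.02 and 1.22 CPM in DMSO and at 1.73, 1.37 and 1.98 in rotenone (0.28 ± 0.23, adjusted p = 0.79), and was called higher without DMSO replicate 1 (0.63, adjusted p = 0.045). The gene pes-10 was not called (-0.49 ± 0.18, adjusted p = 0.24).

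Embryonic markers as a whole were lower in the rotenone libraries. The 37 tested of 43 embryo markers, nearly the same list, summed to 126 to 155 CPM in DMSO, highest in replicate 1, and to 101 to 116 in rotenone, without overlap; 1 marker was at 0 in all 6 libraries. The 12 oocyte and eggshell markers summed to 13400 to 18500 CPM in DMSO, lowest in replicate 1, and to 17700 to 20000 in rotenone, and 0 of them was called with all libraries or without DMSO replicate 1. The 58 tested sperm markers summed to 224 to 257 CPM in DMSO and 236 to 259 in rotenone, and the 9 germline markers to 1440 to 1840 and 1590 to 1920, also with 0 called with all libraries. The embryonic zygotic list summed to means of 141, 118 and 188 CPM in DMSO at days 1, 5 and 20, highest at the oldest age. Which tissue carried these transcripts was not tested. A lower embryo content, a lower level per embryo and a lower level outside embryos cannot be told apart in these libraries.

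Genes of 2 families of developmental transcription factors were among those that fell. In a list of 18 T-box genes, chosen after the values were seen, 6 fell (background 0.91%) and none rose: tbx-8, tbx-11, tbx-37, tbx-38, tbx-40 and tbx-43, of which tbx-37 and tbx-38 are also in the embryonic list. The gene tbx-11 (III:6045615-6046981) stood at 21, 21.4 and 20.6 CPM in DMSO and at 12.8, 12.6 and 11 in rotenone (-0.79 ± 0.11, adjusted p = 0.0017), and was among the genes called in every fit with a library left out. The T-box median was -0.42, and -0.48 without DMSO replicate 1, when 7 were called lower (background 7.95%), and 7 also with the length trend removed. Of 79 homeobox genes, in a list also chosen after the values were seen, mls-2, ceh-13 and ceh-32 fell and none rose. The gene mls-2 (X:4758804-4761640) stood at 4.71, 6 and 5.08 CPM in DMSO and at 2.9, 3.16 and 2.9 in rotenone (-0.83 ± 0.11, adjusted p = 0.0013). The homeobox genes unc-39 (-0.71 ± 0.14, adjusted p = 0.015), tab-1 (-0.89 ± 0.21, adjusted p = 0.033) and unc-86 (-0.57 ± 0.14, adjusted p = 0.047), which the list did not hold, fell as well. Of the 79, 12 were lower and none higher without DMSO replicate 1, and 9 lower and 1 higher with the length trend removed as well.

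Some genes of Skp1-based ubiquitin ligases were among those that fell. F-box proteins carry substrates to these ligases through Skp1, and in C. elegans both form large, fast-evolving families. Of 333 F-box genes tested 20 fell (background 0.91%) and none rose, with a median of -0.20. By subfamily, 12 of 107 fbxb genes (11.2%) and 7 of 43 fbxc genes (16.3%) fell and 1 of 183 fbxa genes (0.546%, below the share of all genes) did, with medians of -0.47, -0.28 and -0.03. Of the 20 genes, 12 lay on chromosome II, which holds 116 of the 333. The gene fbxb-63 stood at 2.34, 1.59 and 1.87 CPM in DMSO and at 0.925, 0.893 and 0.893 in rotenone (-1.07 ± 0.18, adjusted p = 0.0049). The gene fbxc-25 stood at 7.32, 7.16 and 6.47 CPM in DMSO and at 3.72, 4.5 and 3.99 in rotenone (-0.78 ± 0.12, adjusted p = 0.0027). A total of 32 F-box genes were called lower and 7 higher without DMSO replicate 1, with a median of -0.07 (7.95% and 6.32% of all genes), and with the length trend removed as well 35 and 4.

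Of 114 BTB, MATH and Skp1-related genes 7 fell (background 0.91%) and none rose: skr-7, skr-10, skr-14, btb-6, btb-8, btb-10 and bath-10. The Skp1-related gene skr-7 (V:4422427-4423011) was the most abundant, at 109, 94.1 and 95.9 CPM in DMSO and 48.6, 71.7 and 61.2 in rotenone (-0.72 ± 0.11, adjusted p = 0.0027). Its relative skr-10 (IV:15946807-15947385) stood at 21.2, 20 and 18.5 CPM against 8.23, 13.5 and 11.6 (-0.84 ± 0.15, adjusted p = 0.0066). In both, rotenone replicate 1 was the lowest library and DMSO replicate 1 the highest. The list's median was -0.07 with all libraries and 0.08 without DMSO replicate 1, when 8 members were lower and 7 higher (7.95% and 6.32% of all genes). With the length trend removed as well, 14 were lower and 5 higher (701 and 797 of 16510 over all genes). Members of these families are similar in sequence, so reads may have been divided among them.

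**Figure D4:**
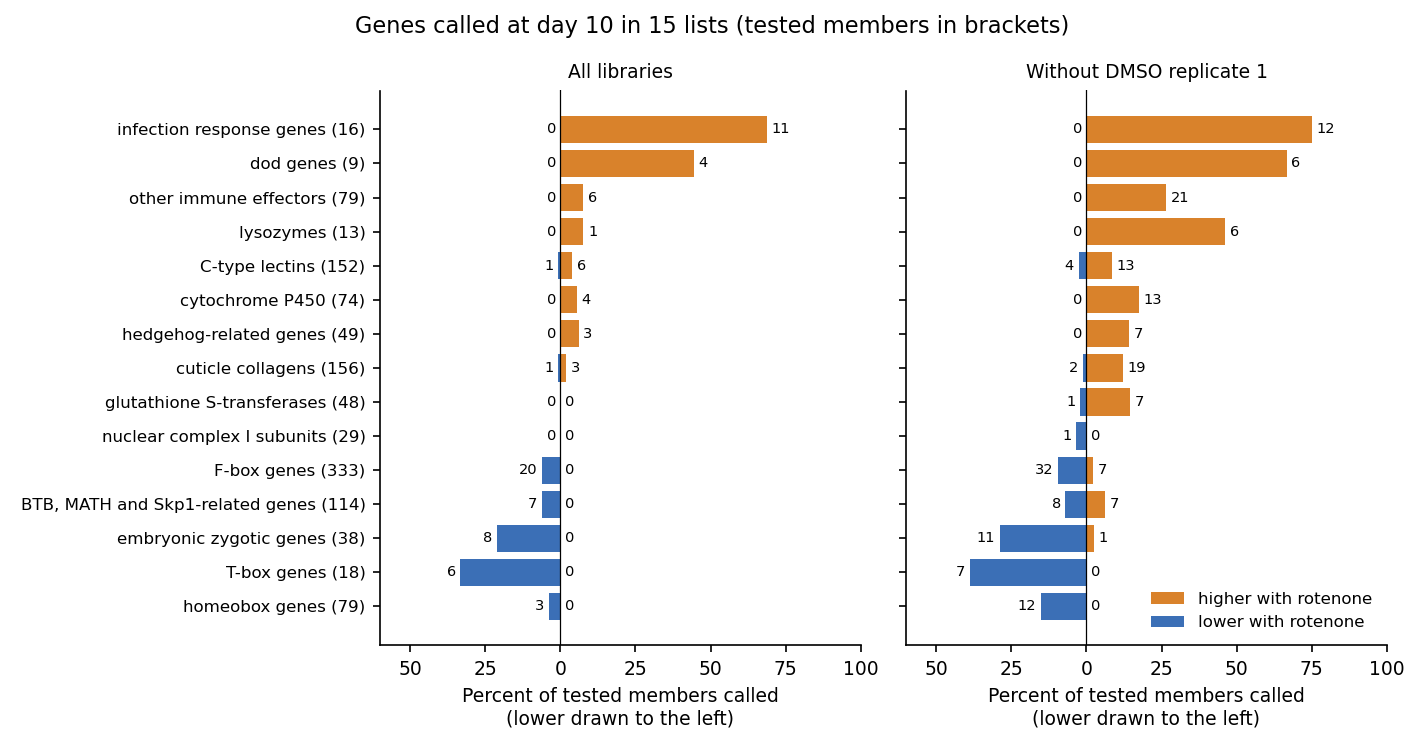
Bars give the percentage of tested members of 15 gene lists called higher (right, orange) or lower (left, blue) with rotenone at day 10, with the number called beside each bar, from all libraries (left panel) and without DMSO replicate 1 (right panel). Infection response genes stand at 11 higher and 0 lower of 16 in the left panel and T-box genes at 0 higher and 6 lower of 18. Glutathione S-transferases have calls in the right panel alone. The infection response, T-box and homeobox lists were chosen after the values were seen, so their bars describe those genes and are no independent evidence.

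Chromatin and signalling genes were also among those that fell. The linker histone genes hil-2 and hil-3 were the 2 of 34 tested histone genes that fell (0.91% of all tested genes did). Without DMSO replicate 1, 2 histone genes were lower (7.95% of all genes), and 4 with the length trend removed as well (701 of 16510). The gene hil-2 (IV:6294240-6295217) stood at 149, 169 and 158 CPM in DMSO and at 95.9, 113 and 101 in rotenone (-0.62 ± 0.09, adjusted p = 0.0022), and hil-3 fell by 0.69 ± 0.13 (adjusted p = 0.008). The chromodomain gene cec-8 fell from 51.9, 53.6 and 49.5 CPM to 27.8, 37.2 and 32.4 (-0.67 ± 0.10, adjusted p = 0.0017). The H3K27 demethylase genes jmjd-3.1 (-0.50 ± 0.12, adjusted p = 0.04) and jmjd-3.2 (-0.64 ± 0.14, adjusted p = 0.026) fell as well, the former with overlapping groups. In Notch signalling, the receptor gene lin-12 (-0.49 ± 0.10, adjusted p = 0.013) and the ligand-family gene dsl-2 (-0.60 ± 0.10, adjusted p = 0.0055) fell. The gene unc-129, for a TGF-beta family ligand, fell by 0.54 ± 0.11 (adjusted p = 0.017) and cki-1, for a cyclin-dependent kinase inhibitor, by 0.53 ± 0.10 (adjusted p = 0.009).

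The genes of at least 100 CPM with the largest changes among those that fell were cht-1, cav-1, sup-26, C35E7.5, hil-2 and epg-2. The caveolin gene cav-1 (IV:9772510-9773559), known for its product in the germline and embryo, stood at 407, 448 and 431 CPM in DMSO and at 237, 317 and 287 in rotenone (-0.61 ± 0.10, adjusted p = 0.0049). The chitinase gene cht-1 stood at 391, 542 and 502 CPM in DMSO and at 312, 321 and 308 in rotenone (-0.61 ± 0.12, adjusted p = 0.01), with DMSO replicate 1 the lowest control. The autophagy receptor gene epg-2 and sepa-1, whose product is a substrate of autophagy in embryos, stood at means of 138 and 40.6 CPM in DMSO. They fell by 0.48 ± 0.12 (adjusted p = 0.045) and by 0.67 ± 0.11 (adjusted p = 0.0049). Of 30 autophagy genes epg-2 was the 1 call with all libraries. Without DMSO replicate 1, 9 were lower and 2 higher (7.95% and 6.32% of all genes). With the length trend removed as well there were 5 and 1.

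Lipid genes went both ways. In fatty acid activation, binding and oxidation 3 of 69 genes fell (0.91% of all tested genes did), namely acs-3, lbp-1 and cpt-6, and none rose. Without DMSO replicate 1, 8 were lower and 1 higher (7.95% and 6.32% of all genes). The acyl-CoA synthetase gene acs-3 stood at 3.66, 6.12 and 5.27 CPM in DMSO and at 2.01, 2.97 and 2.62 in rotenone (-1.0 ± 0.21, adjusted p = 0.016). The lipid-binding protein gene lbp-1 fell from 90.2, 80.8 and 80.3 CPM to 57.2, 64.2 and 61 (-0.46 ± 0.08, adjusted p = 0.0072). The lysosomal lipase gene lipl-7 fell (-0.38 ± 0.09, adjusted p = 0.033) while the desaturase gene fat-5 rose, as given above. None of the 6 vitellogenin genes for yolk proteins was called with all libraries or without DMSO replicate 1. With the length trend removed as well, 2 were higher (797 of 16510 over all genes).

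No nuclear gene of the enzyme that rotenone inhibits was called with all libraries. Over 29 such subunit genes the median was -0.09, and 1 was lower without DMSO replicate 1, with a median of 0.01, and 2 with the length trend removed as well. The subunit gene gas-1 stood at 54.8, 69.5 and 68.8 CPM in DMSO and at 52.4, 64.3 and 60.3 in rotenone (-0.13 ± 0.10, adjusted p = 0.78). None of 37 genes of complexes II to V was called with all libraries and 4 were lower without DMSO replicate 1. None of 8 mRNAs of the mitochondrial genome was called with all libraries. Without DMSO replicate 1, MTCE.31, ND6 and COX3 were higher, and for MTCE.31 the sign turned, from -0.07 to 0.50 (adjusted p = 0.0041). It stood at 1830 CPM in DMSO replicate 1, at 749 and 799 in the other controls and at 1230, 1020 and 984 in rotenone. For ND6, itself a complex I subunit gene, the log2 fold change was -0.13 with all libraries and 0.96 without DMSO replicate 1 (adjusted p = 0.009).

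Several stress pathways, the mitochondrial unfolded protein response among them, gave no call with all libraries. Of 13 genes of the mitochondrial unfolded protein response none passed with all libraries and 2 were lower without DMSO replicate 1. The mitochondrial chaperone gene hsp-6 stood at 359, 777 and 760 CPM in DMSO and at 464, 625 and 684 in rotenone (-0.10 ± 0.21, adjusted p = 0.96), and hsp-60 at 191, 340 and 355 against 229, 310 and 341 (-0.01 ± 0.18, adjusted p = 1.00). For both, DMSO replicate 1 was the lowest of the 6 libraries and rotenone replicate 1 the next, so the fold change without DMSO replicate 1 was lower, at -0.35 and -0.22, and did not pass. The superoxide dismutase gene sod-3 gave 0.31 ± 0.12 (adjusted p = 0.30). None of 15 inducible heat shock genes, 24 antioxidant genes, 11 genes of the hypoxia pathway, 33 proteasome genes or 76 cytosolic ribosomal protein genes was called with all libraries. Without DMSO replicate 1, 2 proteasome genes and 1 hypoxia gene were lower and 1 heat shock gene was higher. Of the antioxidant genes 1 was higher and 1 lower (6.32% and 7.95% of all genes).

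Other single genes chosen earlier did not pass with all libraries either. The values were 0.73 ± 0.55 for gst-14 (adjusted p = 0.76) and 0.58 ± 0.32 for F22B5.4 (adjusted p = 0.56), both under 1 CPM. For aip-1 it was 0.01 ± 0.17 (adjusted p = 1.00), and 0.36 without DMSO replicate 1 (adjusted p = 0.029). These misses do not show that the genes were equal between the groups.

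Several groups of genes were called without DMSO replicate 1 alone, and their counts moved with the length trend. Over all genes that fit called 6.32% higher and 7.95% lower, and 797 and 701 of 16510 with the trend removed. Of 33 aminoacyl-tRNA synthetase genes, which charge tRNAs with amino acids, 11 were lower without that library and none with all libraries; with the length trend also removed, 3 were lower and 1 higher. Their median log2 ratio of DMSO replicate 1 to the other controls was -0.53. Mitochondrial ribosomal protein genes, for which that ratio was 0.33, gave 15 higher and 1 lower of 68, and 1 and 1 with the trend removed. For DNA replication and mitosis 13 of 29 were lower and 1 higher, and 7 and 2 with the trend removed, including the ribonucleotide reductase gene rnr-1, at 408, 903 and 847 CPM in DMSO and 420, 606 and 607 in rotenone (-0.66 without DMSO replicate 1, adjusted p = 0.0036). Basement membrane genes, a list chosen after the values were seen and with a ratio of -1.1, gave 8 lower of 14, and 4 with the trend removed. The laminin gene lam-1 stood at 7.68 CPM in DMSO replicate 1, at 58 and 48.6 in the other controls and at 18.3, 29.9 and 31.2 in rotenone (-0.98 without DMSO replicate 1, adjusted p = 0.0013; -0.53, adjusted p = 0.76 with it). ER chaperones gave 6 lower and 1 higher of 21, and 5 and 1 with the trend removed. On the X chromosome 353 of 2424 genes (14.6%, against 7.95% of all) were lower without DMSO replicate 1. There 68 (2.81%, against 6.32%) were higher. With all libraries 31 X genes were lower (1.28%, against 0.91%), and on chromosome II 44 of 2947 were (1.49%). Chromosomes were not counted with the length trend removed.

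The genes farthest from their group in DMSO replicate 1 were not called with all libraries. The noncoding RNA gene rncs-1 stood at 57.7 CPM there against 12.6 and 12.1 in the other controls, and at 28.7, 18.9 and 16.2 in rotenone; its log2 fold change went from -0.36 to 0.80 without DMSO replicate 1 (adjusted p = 0.015). In the other direction F58D5.5 stood at 1.94 CPM against 31.6 and 36.6, and at 9.43, 22.9 and 25.6 in rotenone. In both genes rotenone replicate 1 was the rotenone library nearest to DMSO replicate 1. Over all genes, the deviations of the libraries of replicate 1 from their group means had a correlation of 0.43.

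At the other ages, each with controls of its own, the genes that fell at day 10 mostly had the same sign at day 5. Of the 153, 142 (92.8%) were below 0 at day 5, where 51.8% of all tested genes were, and 47 were called lower there, which is 30.7% of the day 10 list and 36.2% of the 130 genes called lower at day 5 (background 0.773%). At day 20, 124 (81%) were below 0, and at day 1, 89 (58.2%), with none called lower at either age (background 0.00594% and 0.273%). The genes that rose at day 10 did not do so at day 5: 54 of the 76 (71.1%) were below 0 there, 8 were called lower, and 1, clec-3, higher (background 0.107%). At day 20, 64 of them (84.2%) were above 0, where 54.7% of all tested genes were, with 1 called higher, fat-5 (background 0.0594%). At day 1, 42 of the 76 (55.3%) were above 0, beside 54.9% of all tested genes; 5 were called higher, of 63 over all genes, and 3 lower (background 0.273%). The ages shared no libraries but shared 1 estimate of the spread. Day 20 had 4 libraries and each other age 6, so the counts of calls at day 20 are not a like comparison. At day 5, rotenone replicate 2 had a ribosomal RNA share of 17.6%, against 0.578% to 1.27% in the other day 5 libraries. Ratios to their own group correlated with length at -0.422 and 0.371 for DMSO replicates 2 and 3 of day 5. The part of these differences in the day 5 counts was not tested.

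The group means are given for a pair of single genes. The mean of tbx-11 was 15.1 ± 0.74 CPM (SD, n = 3) in DMSO and 9.86 ± 0.92 in rotenone at day 5, and 21 ± 0.37 and 12.1 ± 0.96 at day 10. The mean of irg-5 was 72.4 ± 2.4 CPM in DMSO and 51.5 ± 2 in rotenone at day 5, where it was called lower, and 34.1 ± 3.2 and 59.7 ± 9.7 at day 10. Rotenone libraries thus lay below their controls at the first of these ages and above them at the second for irg-5, and below at both for tbx-11. The collagen gene col-183 also went from lower at day 5 (-1.07, adjusted p = 0.00031) to higher at day 10 (1.21).

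**Figure D5:**
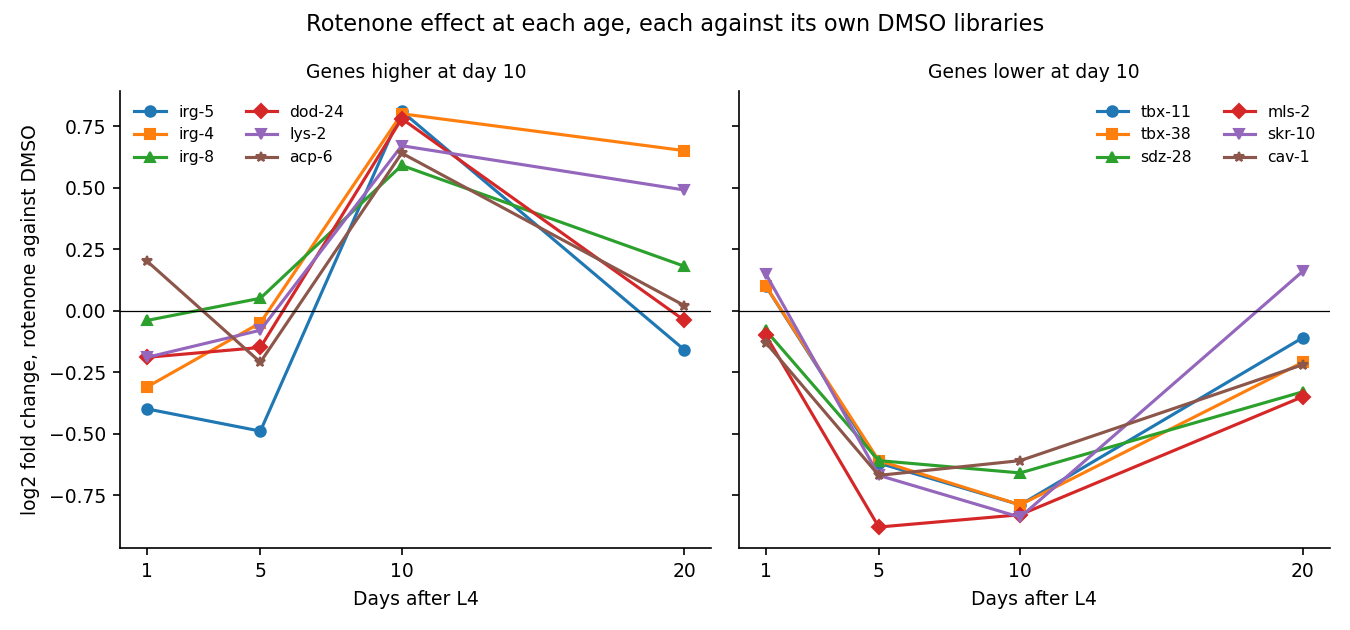
The vertical axis is the log2 fold change of rotenone against the DMSO libraries of the same age and the horizontal axis the days after L4 (1, 5, 10 and 20). Each panel plots 6 selected genes: the 6 genes higher at day 10 (left) lie at or below 0.20 at days 1 and 5, while the 6 lower at day 10 (right) lie between -0.88 and -0.61 at day 5 as well.

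The difference between the effect at day 10 and the mean of the effects at days 1, 5 and 20 was tested directly. The ages entered that mean with equal weight, day 20 with 4 libraries and the others with 6. It passed for 6 genes (0.0357%), 5 with a higher effect at day 10 (0.0297%) and 1 with a lower one (0.00594%). For irg-5 the difference was 1.15 ± 0.12 on the log2 scale (adjusted p = 0.00026), with effects of -0.40, -0.49, 0.81 and -0.16 at days 1, 5, 10 and 20. The others with a higher effect were C52D10.1 (1.13 ± 0.17, adjusted p = 0.015), dod-24 (0.90 ± 0.16, adjusted p = 0.037), pho-11 (0.71 ± 0.11, adjusted p = 0.015) and acp-6 (0.64 ± 0.10, adjusted p = 0.015). The cathepsin B-like protease gene cpr-5 had the lower effect (-0.61 ± 0.10, adjusted p = 0.016). Its effect was 0.86 at day 5 (adjusted p = 9.7e-06). At day 10 it was -0.33 and was not called with all libraries (adjusted p = 0.052). Without DMSO replicate 1, 54 genes passed (0.322%), these 6 among them, 42 with a higher (0.25%) and 12 with a lower effect (0.0715%). With the replicate number as a block 26 passed, without rotenone replicate 2 also 26, without rotenone replicate 3 only 2 and without DMSO replicate 3 only 1.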

How the data were processed

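The values analysed are the authors' deposited counts, whole numbers of reads for each gene with no normalization, as the values show. A deposited RPKM table was not used. Per the submitters' processing notes, TopHat 1.4.1, HTSeq and the build WBcel235 were used, with no role or order stated. The annotation version and any read filter are not given in the sources used here. Per the labels' protocols, 2 μg of total RNA per sample entered the TruSeq RNA kit, which does not mark strand, so reads of a gene and of an overlapping antisense gene cannot be told apart. Whether replicates came from separate cultures is not labelled, so p-values measure only how far these samples spread, which can be technical.

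Counts were tested with edgeR 4.0.16 (quasi-likelihood, TMM scaling, filterByExpr) in R 4.3.3, with 22 libraries in 8 groups in 1 fit and 16822 of 45461 genes tested. P-values were adjusted by Benjamini-Hochberg over all tested genes and a gene was called under 0.05. CPM were computed by edgeR from the counts and the TMM-scaled library sizes. SE were derived from the F statistic. The script was tested on simulated data. Of the table's genes, 44080 matched RefSeq genes of WBcel235, the source of current names and coordinates.

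The comparison, members and gene lists were chosen with earlier results of these data known, and 7 lists after the values were seen. Named genes were up to 12 per direction with the largest change among called genes of at least 1 CPM without overlap of the groups. Added were up to 6 of at least 100 CPM, up to 8 called without DMSO replicate 1, up to 6 for the difference between ages, up to 6 farthest in DMSO replicate 1, up to 3 members of lists with at least 20% called, and 10 single genes. Other named genes were chosen after their values were seen. Deviations of equally numbered libraries had correlations of 0.43, 0.22 and 0.16 at day 10 and those of unequal numbers -0.39 to 0.24. The value of 0.24, for DMSO replicate 2 and rotenone replicate 3, was above 0.22 and 0.16. Deviations within a group also depend on each other, so these values do not show that equal numbers were pairs. A fit with the number as a block was run as an alternative. Alternatives used RLE size factors, other filters, DESeq2 1.42.0, limma-voom 3.58.1 with library weights, day 10 libraries alone, a length trend removed by lowess, and each day 10 library left out.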

Additional observations from a re-analysis of the deposited data

Results flagged for a closer look

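The rotenone effect at day 10 differed from the mean effect at days 1, 5 and 20 in 6 genes, by a test of the difference itself within the edgeR fit. The difference, on the log2 scale, was 1.15 for irg-5, 1.13 for C52D10.1, 0.90 for dod-24, 0.71 for pho-11, 0.64 for acp-6 and -0.61 for cpr-5. In irg-5, C52D10.1, dod-24 and pho-11 the effect was below 0 at days 1 and 5 and above 0 at day 10. In acp-6 it was 0.20 at day 1, -0.21 at day 5, 0.64 at day 10 and 0.02 at day 20. In cpr-5 it was -0.21, 0.86, -0.33 and 0.19 at the same ages, and the value at day 10 was not called with all libraries.

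The levels of these genes also changed with age. The DMSO mean of acp-6 was 435 CPM at day 1, 345 at day 5, 115 at day 10 and 12.6 at day 20, and that of irg-5 was 17.1, 72.4, 34.1 and 7.53. For cpr-5 the DMSO mean was 246 CPM at day 1, 46.4 at day 5, 119 at day 10 and 20.2 at day 20.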

How the results depend on the processing

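The count of 229 genes called at day 10 was 205 with RLE size factors and 189 with a mean of at least 50 counts. It was 362 with no filter on low counts, 405 with DESeq2, 2235 with limma-voom and library weights, and 361 with the length trend removed. The day 10 libraries alone gave 0 genes (853 at an unadjusted p under 0.05), and 487 without DMSO replicate 1. Leaving out 1 library gave 47 to 2396. The share of calls that were higher with rotenone was 33.2%, 46.7% with no filter, 48.7% with a mean of at least 50 counts, 48.5% with the length trend removed and 63.8% without rotenone replicate 1. Alternatives chosen after seeing the data gave 940 genes with replicate 1 of both groups left out and 1498 with the length trend removed and DMSO replicate 1 left out. In the fit with the replicate number as a block, 286 genes were called, 94 higher and 192 lower, 199 of them shared with the 229. With the first pair left out it called 2525.

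The 6 genes whose effect at day 10 differed from the other ages were 8 with RLE size factors and with a mean of at least 50 counts. They were 118 with no filter, 26 with the replicate block, 73 with DESeq2, 80 with limma-voom, 43 with the length trend removed, and 1 to 54 on leaving out 1 library.

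Among the named genes, the sign turned with a call for 3 mitochondrially encoded genes and for rncs-1, all without DMSO replicate 1. Without that library it also turned, with no call, for Y46H3C.5 (-0.28 to 0.51) and K07B1.8 (-0.31 to 0.48). With the replicate block on all libraries it turned, with no call, for genes that included F58D5.5 (-0.29 to 0.14) and adpr-1 (-0.25 to 0.20). In that fit MTCE.31 stood at 0.06, ND6 at 0.19 and MTCE.7 at 0.03, also with no call. For MTCE.31, -0.07 with all libraries, it was 0.38 with limma-voom, 0.50 without DMSO replicate 1, 0.40 without the first pair (with and without the block) and 0.36 with the length trend removed and DMSO replicate 1 left out. For ND6, -0.13 with all libraries, these values were 0.92, 0.96, 0.81 with the block, 0.83 without it and 0.77. Leaving out 1 library at a time gave -0.29 to 0.50 for MTCE.31 and -0.52 to 0.96 for ND6. For MTCE.7, -0.21 with all libraries, they were 0.47, 0.66, 0.49 with the block, 0.49 without it and 0.52. For rncs-1, -0.36 with all libraries, the sign turned with limma-voom (0.58) and without DMSO replicate 1 (0.80). It was 0.54 without the first pair, with and without the block, and 0.68 with the length trend removed and DMSO replicate 1 left out. Leaving out 1 library at a time gave -0.52 to 0.66 for MTCE.7 and -0.71 to 0.80 for rncs-1. The cause was not tested. DMSO replicate 1 was the shallowest of the 6 libraries, at 27105806 counts.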

Other observations

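Further single genes that fell are given here by their values. The beta-tubulin gene tbb-4, known from ciliated neurons, stood at 11.5, 14.9 and 15 CPM in DMSO and at 7.86, 10.3 and 8.44 in rotenone (-0.64 ± 0.14, adjusted p = 0.031). The innexin gene inx-2, 1 of 25 innexin genes tested in a list chosen after the values were seen and the 1 called with all libraries, stood at 60.8, 72.9 and 68.9 CPM in DMSO and at 48.3, 51.8 and 47 in rotenone (-0.46 ± 0.08, adjusted p = 0.0049). Of 128 neuropeptide and insulin-like peptide genes the insulin-like gene ins-34 fell (-0.66 ± 0.15, adjusted p = 0.032) and none rose. Without DMSO replicate 1, 8 of the 128 were higher and 1 lower (6.32% and 7.95% of all genes), with a median of 0.19. With the length trend removed as well none was higher and 1 lower. None of 27 synaptic and transmitter genes was called with all libraries, and 10 neuronal markers summed to 433 to 478 CPM in DMSO and 411 to 464 in rotenone. None of 32 muscle genes was called either, and 9 body wall muscle markers summed to 509 CPM in DMSO replicate 1, to 833 and 817 in the other controls and to 625 to 799 in rotenone.

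Of 219 nuclear hormone receptor genes, nhr-32 (-0.44 ± 0.09, adjusted p = 0.02) and nhr-150 (-0.83 ± 0.19, adjusted p = 0.033) fell, beside 0.91% of all genes. There were 9 lower and 4 higher without DMSO replicate 1, where 7.95% and 6.32% of all genes were. The dosage and sex determination gene sex-1, also a nuclear receptor, fell from 71.1, 79.2 and 78.1 CPM to 57.7, 58.2 and 54.9 (-0.42 ± 0.08, adjusted p = 0.01). The ornithine decarboxylase gene odc-1, of polyamine synthesis, fell from 36.5, 39.7 and 36.6 CPM to 25.4, 28.5 and 26.1 (-0.50 ± 0.09, adjusted p = 0.0059). None of 252 chemoreceptor genes was called with all libraries.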
